A study of Mus musculus with 6 samples.

Results

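Sox2 and 9 genes of the Notch pathway (Jag1, Jag2, Lfng, Dll1, Notch1, Hes1, Hes5, Hey1 and Hey2) were examined in mouse inner ear tissue at embryonic day 11.5. Every probe set listed for one of these symbols on the Affymetrix mouse genome array was taken, which gave 16 of 45037 probe sets and 10 of 18193 named genes. For every array, ears of 3 embryos that shared a genotype were pooled, left with right, after the otic vesicle had been dissected with the mesenchyme around it. Control pools were T-Cre conditional Tbx1 heterozygotes, and Mest-KO pools were T-Cre conditional Tbx1 knockouts, with 3 arrays in each group. Both groups therefore carried T-Cre, whose Cre is driven by the T (brachyury) gene and acts in mesoderm, so Tbx1 was targeted in the mesenchyme and not in the otic epithelium. The comparison asked how the tissue changed when mesodermal Tbx1 was lost.

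Notch signalling passes between touching cells. Ligands of the Jagged and Delta-like families bind Notch receptors, the receptor is cleaved, and its intracellular part enters the nucleus, where it joins the DNA-binding protein RBPJ and switches on repressor genes of the Hes and Hey families. In the otic vesicle, Delta-like signals limit how many cells become neuroblasts, while Jag1 and the transcription factor Sox2 mark the prosensory patches that later form the sensory organs. The same genes are also used outside the ear epithelium, in the neural tube (Sox2, Dll1 and Hes5) and in blood vessels (Notch1, Hey1 and Hey2). In dissected tissue, fewer cells of a type and less RNA per cell cannot be told apart.

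RBPJ recognises sites with the core GTGGGAA. The 250 bases before the annotated gene start were searched on both strands for GTGGGAA, which reads TTCCCAC on the opposite strand; no other motif was searched. Windows came from RefSeq sequences of GRCm38.p6 and matched 8 of the 10 genes, in 9 windows since Dll1 had 2; Hes1 and Hey1 were not matched. The motif was present in 3 of the 9 windows, those of Hes5, Lfng and Hey2, and in 5.42% of all 32851 windows of that length. In 43 windows of 34 other Notch pathway genes, 3 held it, or 6.98%. The 3 member windows are shown because they include Hes5, the member with the lowest level in Mest-KO relative to control, with matches in capitals.
Hes5: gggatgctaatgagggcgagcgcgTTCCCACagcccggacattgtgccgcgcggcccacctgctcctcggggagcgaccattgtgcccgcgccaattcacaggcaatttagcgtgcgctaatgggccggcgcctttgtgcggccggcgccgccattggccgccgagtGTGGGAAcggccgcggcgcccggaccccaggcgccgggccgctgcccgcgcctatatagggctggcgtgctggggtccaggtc
Lfng: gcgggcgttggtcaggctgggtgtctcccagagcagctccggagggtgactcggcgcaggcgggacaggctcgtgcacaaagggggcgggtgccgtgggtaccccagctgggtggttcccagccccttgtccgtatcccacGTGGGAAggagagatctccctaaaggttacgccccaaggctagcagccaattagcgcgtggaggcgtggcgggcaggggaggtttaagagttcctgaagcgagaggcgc
Hey2: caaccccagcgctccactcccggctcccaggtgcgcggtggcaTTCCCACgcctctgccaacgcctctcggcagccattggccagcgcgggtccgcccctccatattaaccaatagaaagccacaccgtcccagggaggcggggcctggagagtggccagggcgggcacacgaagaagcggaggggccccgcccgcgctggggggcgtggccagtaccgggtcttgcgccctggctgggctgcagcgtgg
The Hes5 window (chr4:154960673-154960922, plus strand) held 2 matches, one from -226 to -220 on the opposite strand and one from -83 to -77 on the strand of the gene, counted back from the gene start. Only 0.161% of all windows held more than 1 match. Lfng (chr5:140607091-140607340, plus strand) had its match from -109 to -103 on the strand of the gene, and Hey2 (chr10:30842784-30843033, minus strand) from -207 to -201 on the opposite strand. A match describes these letters only and shows no binding.

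The 6 arrays resembled each other closely, with correlations of log2 intensity from 0.987 to 0.993 over 14171 genes tested. The dissected tissue contained both parts named on the labels. Oc90, an otolith matrix protein of otic epithelium, had an intensity between 2915 and 3782 on the 6 arrays, and the mesenchymal transcription factor Twist1 between 3293 and 3571. Tbx1 itself averaged 513 ± 61.1 (SD, n = 3) in control against 503 ± 85.4 in Mest-KO and does not check the labels. Its probe set may lie outside the deleted part of the gene, and the otic epithelium in the same dissection was not targeted. Neither was tested. Intensities are on the deposited linear scale, and 11.2 was the highest reading of 27 probe sets for bacterial RNA, taken as background; all 16 probe sets of the 10 genes were above it on every array. Hindbrain neural tube markers varied between arrays. The summed intensity of 16 tested markers was 9808, 7183 and 10627 on control arrays 1 to 3 and 7217, 7645 and 5596 on Mest-KO arrays 1 to 3. Most of each sum was Zic1, at 5423, 5360 and 6191 on control arrays 1 to 3 and 5168, 5325 and 4226 on Mest-KO arrays 1 to 3. Like the neural tube sum, Y-linked genes set control 2 apart, with a summed intensity of 1378, 2577 and 1395 on control arrays 1 to 3. In Mest-KO the Y-linked sum ran from 2289 to 2609, near control 2, so it was partly confounded with genotype. Most of it was Eif2s3y, at 1095, 1976 and 1047 on control arrays 1 to 3 and 2077, 1906 and 1912 on Mest-KO arrays 1 to 3. Control 2 therefore stood apart from control 1 and control 3 in both sums, and the levels of both kinds of marker differed among the pools of 1 genotype.

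None of the 10 genes changed past the threshold in Mest-KO. Differences below are log2 differences, Mest-KO minus control, on the log2(intensity + 16) scale with their standard error, and a gene was called at an adjusted p under 0.05 over all genes tested (limma). By that rule 0 of 10 members rose or fell, against 0.148% of all genes (0.0847% rose and 0.0635% fell). At an unadjusted p under 0.05 (limma) it was also 0 of 10, against 8.98% of all genes. Each gene was read there by 1 probe set. Another, dimmer Hes5 probe set had an unadjusted p of 0.0047 (limma) in the fit of single probe sets. Of the members 7 were higher and 3 lower, where 53.8% of all genes were higher, and their median difference was 0.04, beside 0.01 for all genes. The groups did not overlap for 1 member, Notch1, against 14.5% of all genes (9.31% higher and 5.22% lower in Mest-KO).

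**Figure D1:**
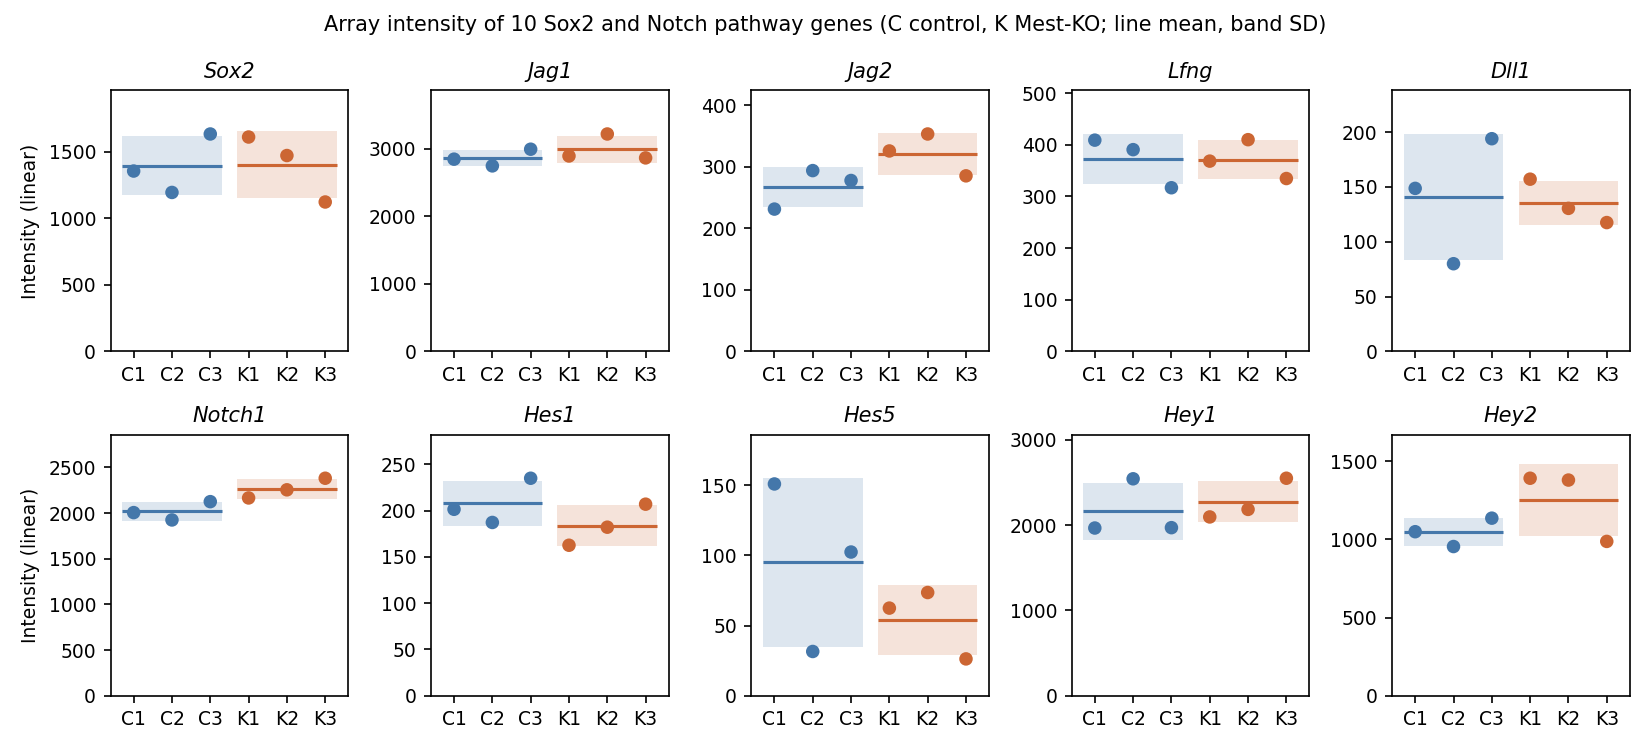
Intensity on the linear scale (vertical axis, from 0) of the 10 genes on each array, with C1 to C3 for control and K1 to K3 for Mest-KO; lines are group means and bands are 1 SD (n = 3). The groups are apart only for Notch1, while Hes5 and Dll1 spread most within the controls relative to their mean, with an SD of 63.3% and 40.7% of it.

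Sox2, the transcription factor that marks prosensory and neural progenitors, had the same mean level in both groups. Intensities of Sox2 were 1356, 1195 and 1634 on control arrays 1 to 3 and 1612, 1472 and 1123 on Mest-KO arrays 1 to 3. The lowest and highest arrays lay in different groups, Mest-KO 3 and control 3, and the groups overlapped throughout. The mean was 1395 ± 222 (SD, n = 3) in control against 1402 ± 252 in Mest-KO, with a log2 difference of 0.0032 ± 0.15 (limma, adjusted p = 0.999; exact permutation p = 1). The 95% interval ran from -0.32 to 0.32, or from 0.803-fold to 1.25-fold, so differences within that range remain possible with 3 arrays a group. The 5 genes whose log2 levels ran most like those of Sox2 over the 6 arrays were Cers2 (Pearson r = 0.994), Hbegf (0.992), Fam135a (0.991), Taf1d (0.989) and Inpp5b (0.985). This is a description over 6 arrays only, and 61 of the tested genes had an r above 0.95 with Sox2.

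Among the ligands, Jag1, which is made in prosensory cells, was the most tightly measured. Intensities of Jag1 were 2844, 2745 and 2992 on control arrays 1 to 3 and 2892, 3217 and 2863 on Mest-KO arrays 1 to 3. Mest-KO 2 was highest, but the other Mest-KO arrays lay within the range of the controls. The difference was 0.06 ± 0.07 (limma, adjusted p = 0.859), with a 95% interval from 0.931-fold to 1.17-fold. A pair of dimmer Jag1 probe sets differed by 0.16 ± 0.16 and 0.04 ± 0.20, in the same direction and without passing.

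Jag2, a second Jagged ligand, gave opposite readings on its 2 probe sets. The brighter one had an intensity of 231, 294 and 278 on control arrays 1 to 3 and 326, 353 and 285 on Mest-KO arrays 1 to 3. Only Mest-KO 3 lay within the control range, and the difference was 0.25 ± 0.14 (limma, adjusted p = 0.630). The dimmer one had an intensity of 103, 91.4 and 99.8 on control arrays 1 to 3 and 75.1, 76.3 and 89.9 on Mest-KO arrays 1 to 3. Here every Mest-KO array was below every control array, yet the difference of -0.24 ± 0.15 did not pass (limma, adjusted p = 0.645 over 31533 probe sets). Averaged over both probe sets, Jag2 differed by 0.0039 ± 0.09. No direction can therefore be given for Jag2.

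Dll1, the Delta-like ligand of delaminating neuroblasts and of neural tube progenitors, varied more among the controls than between genotypes. Intensities of Dll1 were 149, 80.0 and 194 on control arrays 1 to 3 and 157, 130 and 118 on Mest-KO arrays 1 to 3. All 3 Mest-KO arrays lay between control 2, the lowest array, and control 3, the highest. The difference was 0.01 ± 0.25 (limma, adjusted p = 0.997), and the 95% interval from 0.687-fold to 1.47-fold left a wide range. Without control 2 the difference was -0.31 ± 0.18, and without control 3 it was 0.26 ± 0.24, neither past the threshold. Neurog1, the neuroblast factor that switches on Dll1 in many neural tissues, rose over the same arrays from 188 ± 9.79 to 449 ± 124 (1.15 ± 0.19; limma, adjusted p = 0.0478). That call is marginal: the adjusted p was 0.0501 when probe sets were picked and filtered by mean linear intensity, and it passed under 6 of 19 alternatives, from 0.00324 to 0.502, always higher in Mest-KO.

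Notch1, the receptor, was the member with the smallest p and the only one whose groups were apart. Intensities of Notch1 were 2005, 1925 and 2125 on control arrays 1 to 3 and 2166, 2255 and 2381 on Mest-KO arrays 1 to 3. Every Mest-KO array was above every control array, but Mest-KO 1 exceeded control 3 only slightly. The difference was 0.17 ± 0.08, or 1.12-fold, and did not pass (limma, adjusted p = 0.565; exact permutation p = 0.1, the smallest that 3 arrays against 3 allow). The 95% interval ran from 0.997-fold to 1.26-fold. The dimmer Notch1 probe set differed by a similar 0.15 ± 0.16, but its groups overlapped, with an intensity of 338, 284 and 271 on control arrays 1 to 3 and 368, 257 and 383 on Mest-KO arrays 1 to 3. Among 17 tested blood endothelium markers, a cell type that also makes Notch1, 14 were higher in Mest-KO and 0 passed, with a median of 0.07. Of all genes tested 53.8% were higher, with a median of 0.01. The summed intensity of the 17 markers ran from 8668 to 9363 in control and from 9528 to 10473 in Mest-KO, without overlap, and 0 of the 17 were at background on all arrays. On the log2 scale the groups overlapped. Relative to the mean of the 6 arrays, the mean of the 17 was -0.0089, -0.15 and -0.025 on control arrays 1 to 3. On Mest-KO arrays 1 to 3 it was 0.042, 0.16 and -0.014. The part of these markers in the Notch1 reading was not tested.

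Lfng encodes lunatic fringe, an enzyme that adds sugar to Notch receptors and so tunes which ligand they answer. Intensities of Lfng were 409, 391 and 317 on control arrays 1 to 3 and 368, 410 and 335 on Mest-KO arrays 1 to 3. The ranges nearly coincided, and the difference was -0.00086 ± 0.13 (limma, adjusted p = 0.999; 95% interval from 0.814-fold to 1.23-fold). A second Lfng probe set was dim, between 15.0 and 30.3 on the 6 arrays, and differed by 0.13 ± 0.20.

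**Figure D2:**
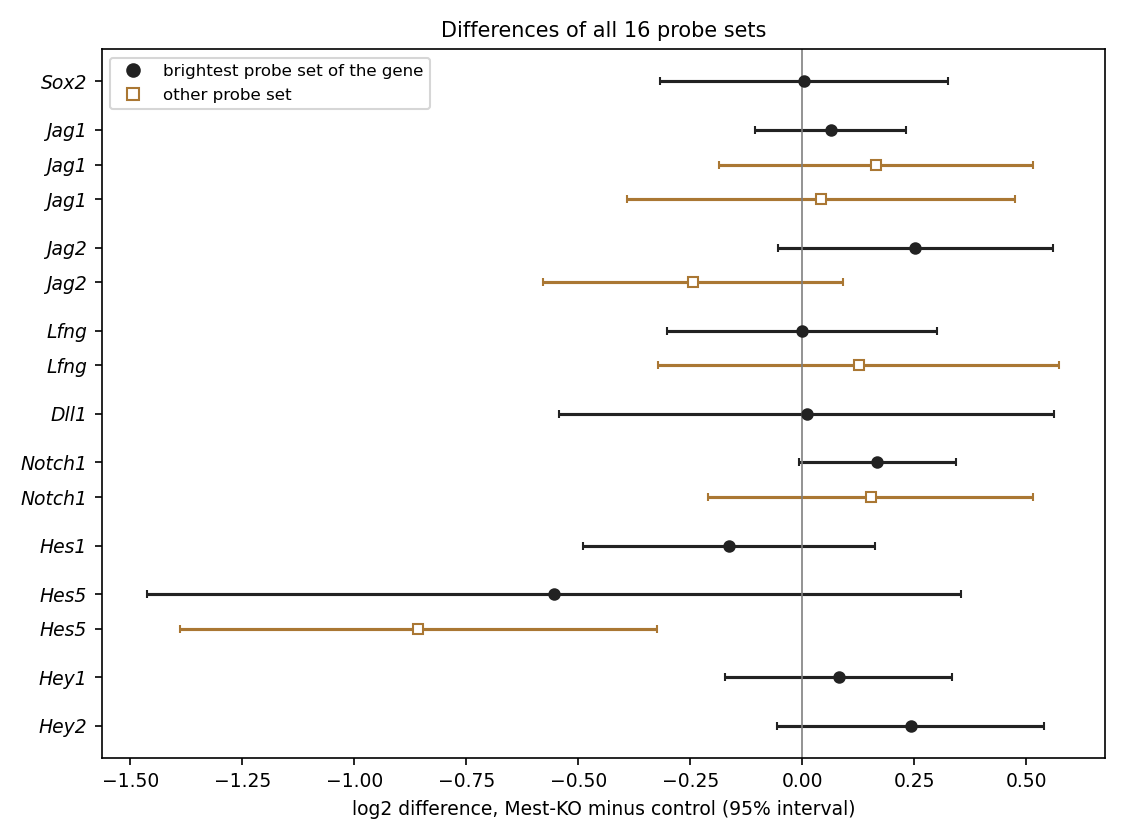
Log2 difference, Mest-KO minus control, with its 95% interval (horizontal axis) for the 16 probe sets of the 10 genes, fitted across 31533 probe sets; filled circles mark the brightest probe set of a gene and open squares the others. The Jag2 probe sets lie on opposite sides of 0, and the dimmer Hes5 probe set, at -0.86, has an interval that lies below 0.

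Of the target genes, Hes5 was the one with the largest difference in size, and it was read by 2 probe sets. The brighter, of a type whose probes can be shared with other transcripts according to its name ending, had an intensity of 151, 31.5 and 102 on control arrays 1 to 3 and 62.4, 73.5 and 26.2 on Mest-KO arrays 1 to 3. Control 1 and control 3 were highest, but control 2 was lower than Mest-KO 1 and Mest-KO 2, so the groups overlapped. The difference was -0.55 ± 0.41 (limma, adjusted p = 0.745; 95% interval from -1.47 to 0.36). The dimmer probe set had an intensity of 115, 53.4 and 91.3 on control arrays 1 to 3 and 36.3, 51.5 and 30.4 on Mest-KO arrays 1 to 3. On this one every Mest-KO array was below every control array, though control 2 and Mest-KO 2 were close. Its difference was -0.86 ± 0.24, with a 95% interval from -1.39 to -0.32, and it did not pass (limma, adjusted p = 0.283 over 31533 probe sets).

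The order of the arrays in Hes5 was close to that of the neural tube markers. Relative to the mean of the 6 arrays, the mean log2 level of the 16 neural tube markers was 0.96, -0.25 and 1.06 on control arrays 1 to 3 and -0.73, -0.14 and -0.90 on Mest-KO arrays 1 to 3. The brighter Hes5 probe set, on the same relative scale, was at 1.05, -0.77 and 0.55 on control arrays 1 to 3 and -0.04, 0.15 and -0.94 on Mest-KO arrays 1 to 3. In both, control 1 and control 3 were the highest arrays and Mest-KO 3 the lowest, with control 2 below 0. Of the 16 markers 15 were lower in Mest-KO, where 53.8% of all genes were higher. By the threshold 2 fell (Skor1 and Hoxb1), against 0.0635% of all genes. Of the 16, 0 were at background on all arrays, while Olig2 and Dbx2, below the filter, read at most 6.48 and 4.58. Hoxb1, at 5.72 ± 3.06 in Mest-KO, and Ptf1a were at or under the background on all 3 Mest-KO arrays. With Lhx5 they passed the filter only through the controls, where Hoxb1 was at 45.1 ± 18.9. These 3 are included in the 15 lower markers and in the neural tube mean, and their direction is no support. With the neural tube mean as a covariate, Hes5 differed by 0.86 ± 0.36 on the brighter probe set and by -0.13 ± 0.28 on the dimmer, neither past the threshold. In the same fit Dll1 differed by 0.72 ± 0.29, Hey2 by 0.51 ± 0.19 and Sox2 by 0.33 ± 0.20, and the other members by -0.23 (Hey1) to 0.23 (Notch1), also without passing. The neural tube mean itself went with genotype, as 15 of its 16 markers were lower in Mest-KO. This fit therefore cannot separate it from genotype, and no conclusion is drawn from it. Without control 2, Hes5 differed by -1.08 ± 0.30 (limma, adjusted p = 0.189) and by -1.11 ± 0.22 (limma, adjusted p = 0.0663) on the brighter and dimmer probe sets, and without control 1 by -0.17 ± 0.39 and -0.66 ± 0.25. Without Mest-KO 3 the brighter probe set differed by -0.22 ± 0.42 and the dimmer by -0.74 ± 0.27, and with the Y-linked level as a covariate by -0.10 ± 0.37 and -0.62 ± 0.24. The size of the Hes5 difference thus changed with the pools of either genotype that entered. The Y-linked level also went with genotype in part, so the fit with it has the same limit.

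**Figure D3:**
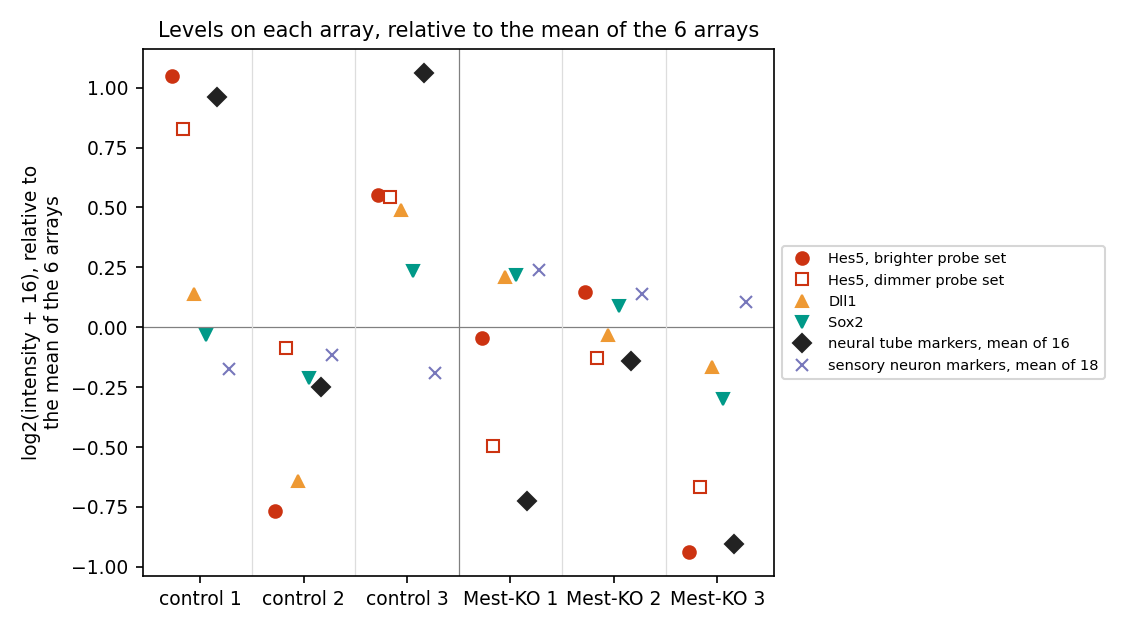
Log2(intensity + 16) on each array relative to the mean of the 6 arrays (vertical axis) for both Hes5 probe sets, Dll1 and Sox2, beside the means of 16 neural tube markers and 18 cranial sensory neuron markers. Control 1 and control 3 are high for Hes5 and the neural tube markers and control 2 is below 0, while the sensory neuron markers are higher on each Mest-KO array than on each control array.

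Hes1, a repressor that is switched on by Notch and by other signals, was slightly lower in Mest-KO. Intensities of Hes1 were 201, 187 and 235 on control arrays 1 to 3 and 162, 182 and 207 on Mest-KO arrays 1 to 3. Mest-KO 1 and Mest-KO 2 were below every control array, but Mest-KO 3 lay within the control range. The difference was -0.16 ± 0.14 (limma, adjusted p = 0.793; 95% interval from -0.48 to 0.15). It was -0.08 ± 0.16 without control 3, -0.09 ± 0.15 without Mest-KO 1 and -0.25 ± 0.16 without Mest-KO 3.

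The Hey genes encode related repressors that are also made in vessels and mesenchyme. Hey1 had an intensity of 1967, 2544 and 1971 on control arrays 1 to 3 and 2097, 2185 and 2551 on Mest-KO arrays 1 to 3. Control 2 and Mest-KO 3 were both high and the other 4 arrays lay close together, and the difference was 0.08 ± 0.11 (limma, adjusted p = 0.883). Hey2 had an intensity of 1050, 955 and 1137 on control arrays 1 to 3 and 1392, 1380 and 988 on Mest-KO arrays 1 to 3. Mest-KO 1 and Mest-KO 2 were above every control array while Mest-KO 3 was within their range. The difference was 0.24 ± 0.13 (limma, adjusted p = 0.633; 95% interval from 0.963-fold to 1.45-fold), and leaving out 1 Mest-KO array gave 0.16 ± 0.15 without Mest-KO 1, 0.16 ± 0.15 without Mest-KO 2 and 0.40 ± 0.11 without Mest-KO 3 (adjusted p = 0.246). The Hes and Hey genes thus did not move one way, with Hes1 and Hes5 lower and Hey1 and Hey2 higher, and none of these differences passed. The Hes5, Lfng and Hey2 windows, the 3 with the RBPJ core shown above, belonged to genes with differences of -0.55, -0.00086 and 0.24.

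Of the 16 probe sets fitted singly, 0 were called, against 0.0666% of all. The groups were apart for 3 of the 16 (Notch1 higher, the dimmer Jag2 and Hes5 probe sets lower), against 15% of the 31533 probe sets fitted. A share of 3 in 16 is near that background.

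No gene passed in the rest of the pathway either. Of 45 other Notch pathway genes, 37 were tested, 20 higher and 17 lower, with a median difference of 0.03, and 0 rose or fell (limma). At an unadjusted p under 0.05, 5 were higher and 1 lower, against 8.98% of all genes, and the groups were apart for 7 higher and 1 lower, against 9.31% and 5.22% of all genes. As shares of the 37 genes these were 16.2% at that p and 21.6% with the groups apart, where all genes gave 8.98% and 14.5%; this is a description with no test. Dlk1, a Delta-like protein without the domain that binds Notch in the classical ligands and an imprinted gene of mesenchyme, had the smallest p. Intensities of Dlk1 were 2050, 1558 and 1762 on control arrays 1 to 3 and 2305, 2961 and 2893 on Mest-KO arrays 1 to 3. Every Mest-KO array was above every control array (0.60 ± 0.12; limma, adjusted p = 0.112). Poglut1, an enzyme that adds glucose to Notch receptors, was at 1013, 951 and 1014 on control arrays 1 to 3 and 819, 769 and 812 on Mest-KO arrays 1 to 3. It was lower on every Mest-KO array (-0.31 ± 0.09; adjusted p = 0.281). Numb, an inhibitor of the receptor, differed by 0.26 ± 0.09, the presenilin gene Psen2, part of the protease that cleaves the receptor, by 0.38 ± 0.14, the fringe gene Rfng by 0.23 ± 0.09 and the ubiquitin ligase gene Dtx2 by 0.23 ± 0.10. These 4 were higher on every Mest-KO array than on every control array, with adjusted p from 0.417 to 0.549.

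By role, the receptors Notch2, Notch3 and Notch4 differed by -0.04 to 0.03, and the 4 tested members of the nuclear complex, among them Rbpj (-0.02 ± 0.07), by -0.04 to 0.05. The ligands Dll3 (-0.15 ± 0.26) and Dll4 (-0.22 ± 0.24), both dim, had wide errors. The 5 tested targets and related repressor genes outside the 10 members were all higher, by 0.04 to 0.36, and none passed. Of all genes tested 53.8% were higher. Heyl was at 0.29 ± 0.13 and the feedback inhibitor Nrarp at 0.04 ± 0.07. The largest difference was that of Hes7, which was dim. Its intensity was 30.2, 31.1 and 13.2 on control arrays 1 to 3 and 31.3, 33.9 and 41.1 on Mest-KO arrays 1 to 3. The other 4 genes of that role were not tested: Hes2, Hes3 and Bhlhe41 were below the filter and Helt had no probe set with 1 gene name.

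**Figure D4:**
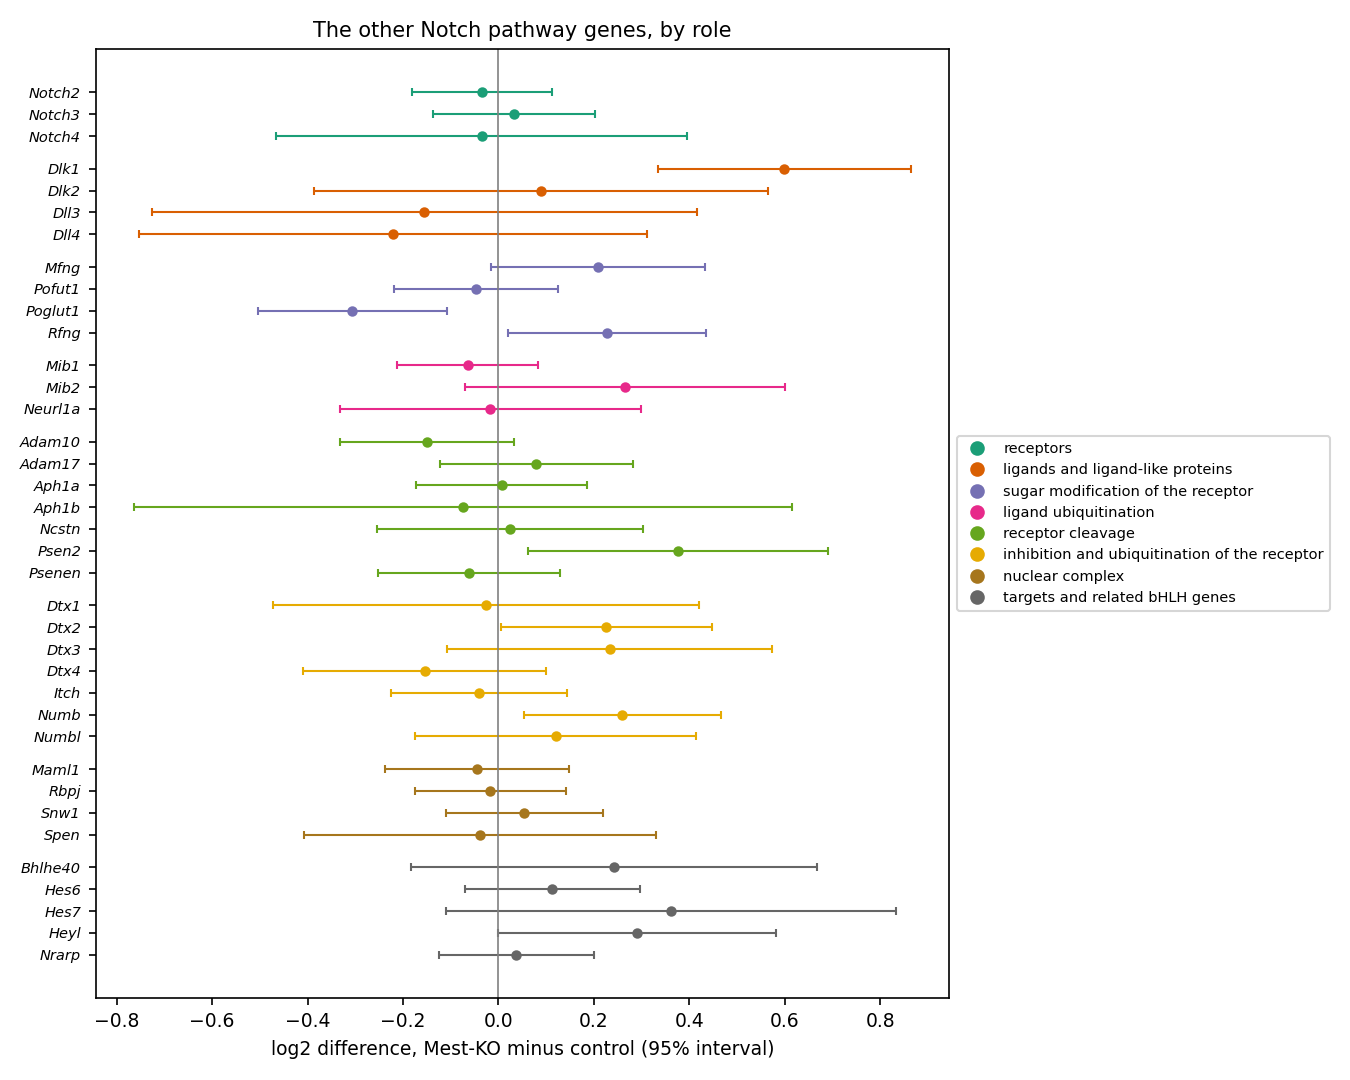
Log2 difference, Mest-KO minus control, with its 95% interval (horizontal axis) for the 37 other Notch pathway genes tested, coloured by role. Dlk1 lies farthest from 0, at 0.60, and the receptors and nuclear complex genes lie between -0.04 and 0.05.

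Genes that act with Sox2 and Notch in the prosensory patches differed in both directions, and none passed. Of 25 in the list, 21 were tested, 13 higher and 8 lower, with a median of 0.01, and 0 rose or fell (limma); 4 higher and 1 lower had an unadjusted p under 0.05, or 23.8% against 8.98% of all genes, and the groups were apart for 7, or 33.3% against 14.5%, again with no test of the share. Prox1, a transcription factor of prosensory and supporting cells, had an intensity of 287, 332 and 263 on control arrays 1 to 3 and 393, 392 and 399 on Mest-KO arrays 1 to 3, all above the controls (0.41 ± 0.12; adjusted p = 0.284). Gata3, a transcription factor of otic epithelium, had an intensity of 471, 613 and 422 on control arrays 1 to 3 and 256, 277 and 451 on Mest-KO arrays 1 to 3. Mest-KO 3 overlapped the controls (-0.62 ± 0.21; adjusted p = 0.361). The feedback inhibitor gene Spry2 (0.20 ± 0.07), the myosin gene Myo7a (0.32 ± 0.12) and the ligand gene Fgf3 (0.46 ± 0.18) were higher on every Mest-KO array, and Sox21, a relative of Sox2, was lower on every one (-0.30 ± 0.14), with adjusted p from 0.414 to 0.565. Atoh1, the hair cell factor, is also made in the hindbrain, and its intensity was 115, 28.6 and 57.5 on control arrays 1 to 3 and 34.2, 35.7 and 23.5 on Mest-KO arrays 1 to 3. As with Hes5, control 1 and control 3 were high and control 2 low, and the groups overlapped (-0.69 ± 0.32; adjusted p = 0.565). Atoh1 and the comparison with Hes5 were chosen after their values were seen. The hair cell genes Pou4f3, Gfi1 and Otof were below the filter, with highest readings of 12.0, 12.0 and 8.01, close to or under the background of 11.2.

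The cell types in the dissection differed in how far their markers shifted. Beside the counts below, 53.8% of all genes tested were higher in Mest-KO. Of 18 tested otic epithelium markers 9 were higher and 9 lower, 0 passed, and their summed intensity ran from 15929 to 19071 in control and from 15950 to 20031 in Mest-KO. Of 18 cranial sensory neuron markers 17 were higher and 2 rose (Pou4f1 and Neurog1), and their summed intensity ran from 42603 to 45355 in control and from 49823 to 52345 in Mest-KO, without overlap. Of 18 periotic mesenchyme markers 12 were lower and 6 higher, with Meox1 past the threshold (higher), and their summed intensity ran from 33689 to 35915 in control and from 31577 to 35080 in Mest-KO. Of 7 neural crest and Schwann precursor markers 6 were higher and 0 passed. Sox10, which is also among the otic epithelium markers, was at 1989 ± 116 in control and 2652 ± 170 in Mest-KO. The 7 markers with Sox10 had sums from 11374 to 11643 in control and from 12610 to 12937 in Mest-KO. The calls of these markers depended on the settings: Hoxb1 had an adjusted p of 0.0504 (limma) by the linear rule and passed under 5 of the 18 alternatives that tested it, and Pou4f1, Skor1 and Meox1 passed under 9, 9 and 7 of 19, each with its direction kept. The part of these shifts in the levels of the 10 genes was not tested.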

How the data were processed

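The 6 one-colour Affymetrix arrays of 45101 probe sets each received label made from 300 ng of total RNA, per the labels' protocols. The deposited values are linear intensities. Per the submitters' processing notes, the authors used Affymetrix Expression Console 1.1; how probes were summarized and background was handled is not given in the sources used here. Leaving out 2% of probe sets at each end, all arrays had a mean of 500.002, so they had been scaled to a common level, which hides a change shared by most genes. The 64 control probe sets were left out, and 34945 probe sets had 1 gene symbol in the platform annotation, 932 several.

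Values were taken as log2(intensity + 16). For a gene with several probe sets the one with the highest mean log2 level stood for it, and 14171 genes past the 30th percentile of probe set means were fitted on genotype alone in limma 3.58.1 (R 4.3.3; eBayes with trend, two-sided, Benjamini-Hochberg). Probe sets were first picked and filtered by mean linear intensity (14168 genes, 19 passing); the log2 rule (21 passing) was adopted after both had been run, because it came closest to an earlier description of these data, and no call of a member differs between them. A second fit covered 31533 probe sets passing the same filter. Intervals are 95% intervals of the fit. Exact permutation tests of 3 arrays against 3 (two-sided) cannot give a p below 0.1. Arrays within a group are biological replicates by their labels, which name no batch. The number of arrays limits the precision. Same-numbered arrays did not deviate together, so the numbers were not taken as pairs. With 3 arrays a group this check cannot exclude a pairing. The fitting was tested on simulated data.

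All members were named. In the pathway and prosensory lists, genes past the threshold and the 6 with the smallest p were named, and in marker lists those past the threshold; other genes were named for their role after their values were seen. The members and lists were chosen with earlier results of these data known. Alternatives covered scaling, filter, pseudocount, probe set rule, variance model, array weights, a replicate block, covariates and leaving out each array.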

Additional observations from a re-analysis of the deposited data

How the results depend on the processing

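Of the 10 members 0 were called under each of the 19 alternatives, and likewise 0 of the other Notch pathway genes and of the other prosensory genes. The count over all genes, 21, was 78 with arrays centred on their medians, 2 with no filter, 6 with the mean of all probe sets, 1 with eBayes without trend and 4 with the neural tube covariate, and from 2 to 84 when 1 array was left out. Picking and filtering probe sets by mean linear intensity, listed as an alternative after seeing the data, gave 19 (11 higher, 8 lower) of 14168 genes; Neurog1 and Hoxb1 then missed the threshold (limma, adjusted p = 0.0501 and 0.0504). With the replicate block 9 genes passed and 0 members; same-numbered arrays had correlations of -0.03, -0.11 and -0.15 in their deviations from the group means, so the numbers were not taken as pairs. The median of the members was 0.22 with the neural tube covariate, and with arrays centred on their medians that of the other Notch pathway genes was -0.040 and of the prosensory genes -0.052, where the median of all genes was -0.05. The neural tube covariate and, in part, the Y-linked one went with genotype, so their fits cannot separate them from it.

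Members near 0 changed sign. Sox2 was at -0.0044 with quantile normalization, -0.062 with median centring and from -0.10 to 0.15 when 1 array was left out. Dll1 was at -0.052 with quantile normalization, -0.056 with median centring, -0.0060 with pseudocount 64, -0.038 with array weights and from -0.31 to 0.26 with 1 array left out. Lfng was at 0.063 with the mean of its probe sets, 0.13 on its dimmer one and from -0.11 to 0.069 with 1 array left out. Hey1 was at -0.021 with the Y-linked covariate, -0.23 with the neural tube covariate and from -0.0027 to 0.20 with 1 array left out. Jag1 was at -0.0023 with median centring, Jag2 at -0.24 on its dimmer probe set and Hes5 at 0.86 with the neural tube covariate. Hes1, Hey2 and Notch1 kept their direction in all alternatives run. Hes5 gave no value with the filter at the 50th percentile. The dimmer probe sets were compared after seeing the data. In 11 alternatives, also chosen then, the dimmer Hes5 probe set ranged from -1.11 to -0.13 (adjusted p from 0.0663 to 0.968) and the dimmer Jag2 one from -0.31 to -0.18. The cause of these shifts was not tested. Dim probe sets such as those of Hes5 limit what a difference can show.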
